A study of Homo sapiens with 12 samples.

Results

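NEAT1 and MALAT1 are neighbouring genes of long nuclear RNAs on human chromosome 11, and SFPQ, NONO, PSPC1 and RBM14 encode proteins that assemble with NEAT1 RNA in paraspeckles. These 6 genes were taken by symbol from the 60649 gene rows of each count file, and all 6 passed the expression filter that left 16683 genes to be tested. RNA was sequenced from spheroids of SBC3, an established small cell lung cancer line, in 12 libraries: 3 controls, 3 with teriflunomide, 3 with lurbinectedin and 3 with the 2 drugs in combination. Teriflunomide, formed in the body from leflunomide, blocks DHODH, an enzyme of pyrimidine synthesis. Lurbinectedin binds DNA and blocks transcription. All 4 groups come from this 1 line in spheroid culture, and the labels give neither doses nor exposure times. The study asks how teriflunomide and chemotherapy act together on small cell lung cancer.

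Paraspeckles are nuclear bodies built on the long form of NEAT1, which is bound by SFPQ and NONO along its length while RBM14 and other proteins with prion-like domains help the ribonucleoprotein particles join into a body. SFPQ, NONO and PSPC1 form one family of RNA- and DNA-binding proteins that pair with each other as dimers. MALAT1 lies in nuclear speckles, bodies rich in splicing factors, and both RNAs stay in the nucleus. NEAT1 is known as a stress-responsive RNA, and MALAT1 was named for its association with metastasis in lung cancer.

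Total counts were 23206414 to 33222162 per library. Mitochondrial genes took 6.26% to 7.17% of the counts in control libraries, 8.42%, 8.43% and 22.6% with teriflunomide, 13.8% to 17.0% in the lurbinectedin group, and 14.6%, 24.9% and 13.1% in the combination group. Teriflunomide replicate 3 and combination replicate 2 therefore stand apart within their groups. Many of the results on the 6 genes and on gene lists that these 2 libraries move are also given without them. Cell type markers moved with lurbinectedin as well. Of 8 neuroendocrine markers 3 passed the filter, and INSM1 did not. The list summed to 20.3 to 21.7 CPM in controls (counts after scaling of all libraries to one effective size). With lurbinectedin it summed to 32.0 to 34.3 CPM. SYP and CHGA were called higher and NEUROD1 lower (log2 fold changes 0.88, 2.74 and -1.31). SYP held most of the sum, with means of 16.8 and 30.9 CPM. CHGA lay near the floor, with means of 0.0633 CPM in controls and 0.442 CPM with lurbinectedin. YAP1, of another class of small cell lung cancer, fell by 1.92 on the log2 scale, and its list summed to 236 to 259 CPM in controls and 60.2 to 72.2 CPM with lurbinectedin. KRT8, the 1 of 4 epithelial markers tested, rose by 0.80 (list 236 to 252 and 400 to 433 CPM). The fibroblast genes COL1A1 and COL1A2 fell by 1.32 and 1.44 (list 519 to 549 and 186 to 220 CPM), while DCN and LUM did not pass the filter. The leukocyte list, in which CD14 was called higher, stayed at or below 2.42 CPM and the endothelial list, in which PECAM1 was called lower, at or below 0.579 CPM in every library. With teriflunomide none of these genes was called. Without teriflunomide replicate 3 and combination replicate 2, KRT8 was called higher (log2 fold change 0.27), when 16.3% of all genes were called. The part of these shifts in the results on the 6 genes was not tested.

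On the GRCh38 assembly (hg38), NEAT1 (ENSG00000245532.9) occupies bases 65422774 to 65445540 of the plus strand of chromosome 11 and has 22767 exon bases in 1 block. MALAT1 (ENSG00000251562.8) follows 52.1 kb downstream on the same strand, at 65497688 to 65506516, again as 1 block, of 8829 bases. RBM14 (ENSG00000239306.5) is on the same chromosome, 1.11 Mb beyond MALAT1, at 66616626 to 66629934. SFPQ (ENSG00000116560.11) lies on the minus strand of chromosome 1 at 35176378 to 35193145, and NONO (ENSG00000147140.17) on the plus strand of chromosome X at 71254814 to 71301522. PSPC1 (ENSG00000121390.19) lies on the minus strand of chromosome 13 at 19674752 to 19783019 and, with a span of 108 kb, is the longest of the 6.

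The libraries were made from polyadenylated RNA, and the ends of NEAT1 and MALAT1 bear on how such libraries count them. The long form of NEAT1 and MALAT1 have no poly(A) tail. Their 3′ ends are cut by RNase P just before a tRNA-like RNA and are protected by a triple helix of U-rich stretches and an A-rich tract. The short form of NEAT1 is polyadenylated. The last 120 bases before the cut are shown for both RNAs, as GENCODE 29 transcripts on GRCh38, with capitals for runs of at least 8 bases that they share in the same order (chr11:65445421-65445540 for the long NEAT1 and chr11:65505997-65506116 for MALAT1, both on the plus strand).
Long NEAT1 before the cut: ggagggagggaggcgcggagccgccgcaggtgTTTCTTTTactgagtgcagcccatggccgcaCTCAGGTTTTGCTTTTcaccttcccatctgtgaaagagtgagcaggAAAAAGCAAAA
MALAT1 before the cut: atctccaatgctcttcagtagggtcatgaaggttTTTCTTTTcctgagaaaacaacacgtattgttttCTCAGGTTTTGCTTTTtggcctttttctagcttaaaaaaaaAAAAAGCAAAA
The shared runs are 8, 16 and 11 bases long. They begin 88, 57 and 11 bases before the end in NEAT1 and 86, 52 and 11 bases before it in MALAT1. Over the aligned ends, 57.9% of positions (77 of 133 alignment columns) were identical. The tRNA-like RNAs that follow (chr11:65445541-65445598 and chr11:65506117-65506173) were identical at 67.2% of positions (41 of 61 columns), with the shared runs again in capitals.
tRNA-like RNA after NEAT1: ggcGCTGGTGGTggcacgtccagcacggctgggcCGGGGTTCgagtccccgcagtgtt
tRNA-like RNA after MALAT1: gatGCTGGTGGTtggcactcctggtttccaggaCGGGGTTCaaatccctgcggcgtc
The short NEAT1 ends differently. The last 60 bases of a short NEAT1 transcript (chr11:65426454-65426513, plus strand) hold the polyadenylation signal AATAAA, in capitals, 5 bases before the end of the transcript.
Short NEAT1 3′ end: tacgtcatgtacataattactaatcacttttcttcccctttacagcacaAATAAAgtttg
The deposited counts are per gene, so the 2 forms of NEAT1 share 1 value, and reads from RNAs without a tail depend on how completely the selection removed them. The part of either point in the differences below was not tested.

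NEAT1, the scaffold RNA, had 31.7, 27.4 and 33.0 CPM in the control libraries and 34.4, 42.9 and 51.0 CPM with teriflunomide. With lurbinectedin it had 159, 164 and 130 CPM, and with the combination 149, 201 and 169 CPM. The 6 libraries exposed to lurbinectedin all lay above the 6 that were not, with no value between 51.0 and 130 CPM. The rise with lurbinectedin was 4.91-fold (from 30.7 ± 2.92 to 151 ± 18.6 CPM, SD, n = 3 each; log2 fold change 2.30, SE 0.16, edgeR adjusted p = 1.94e-08). With the combination it was 5.63-fold against the same controls (173 ± 26.1 CPM; log2 fold change 2.49, SE 0.16, edgeR adjusted p = 1.20e-08). In raw reads the controls held 821 to 1106 counts and the lurbinectedin libraries 3275 to 4204, so counting error is small beside these differences.

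MALAT1 was the more abundant of the 2 RNAs throughout. It had 274, 278 and 300 CPM in controls, 348, 388 and 550 CPM with teriflunomide, 1247, 1331 and 940 CPM with lurbinectedin, and 1041, 1953 and 833 CPM with the combination. As for NEAT1, the libraries with and without lurbinectedin did not overlap. Lurbinectedin raised MALAT1 4.13-fold (284 ± 13.7 to 1173 ± 206 CPM; log2 fold change 2.05, SE 0.27, edgeR adjusted p = 1.00e-05). The combination raised it 4.49-fold (1276 ± 596 CPM; log2 2.17, SE 0.27, edgeR adjusted p = 6.99e-06), with combination replicate 2 far above the others. Without that library the log2 fold change was 1.72 (edgeR adjusted p = 6.12e-06), so the rise was called either way.

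Together the 2 RNAs took 0.0327% to 0.0363% of all counts in controls, 0.102% to 0.140% in the lurbinectedin group and 0.108% to 0.179% in the combination group. Among 1256 genes of long noncoding RNAs tested (by RefSeq gene type), MALAT1 ranked 3 by CPM in controls and 1 with lurbinectedin, and NEAT1 moved from rank 47 to rank 11. Their rises were large even among long noncoding RNAs: 76 of the 1256 (6.05%) had a higher log2 fold change than NEAT1 with lurbinectedin, and 106 (8.44%) a higher one than MALAT1. Long noncoding RNAs as a class were evenly divided, with 399 higher, 389 lower and a median log2 fold change of 0.08.

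The balance between the 2 RNAs was compared per length, as CPM per kb of exon. MALAT1 stood 23.9 ± 1.96 times above NEAT1 in controls (range 22.3 to 26.1), 25.8 ± 2.29 times with teriflunomide, 19.9 ± 1.13 times with lurbinectedin (18.7 to 20.9) and 18.6 ± 6.21 times with the combination (12.7 to 25.1). The lurbinectedin ratios all lay below the control ratios, and the combination ratios overlapped both. The NEAT1 value per kb is divided by the whole gene, most of which belongs to the long form, so it is a low estimate if the reads come from the short form.

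**Figure D1:**
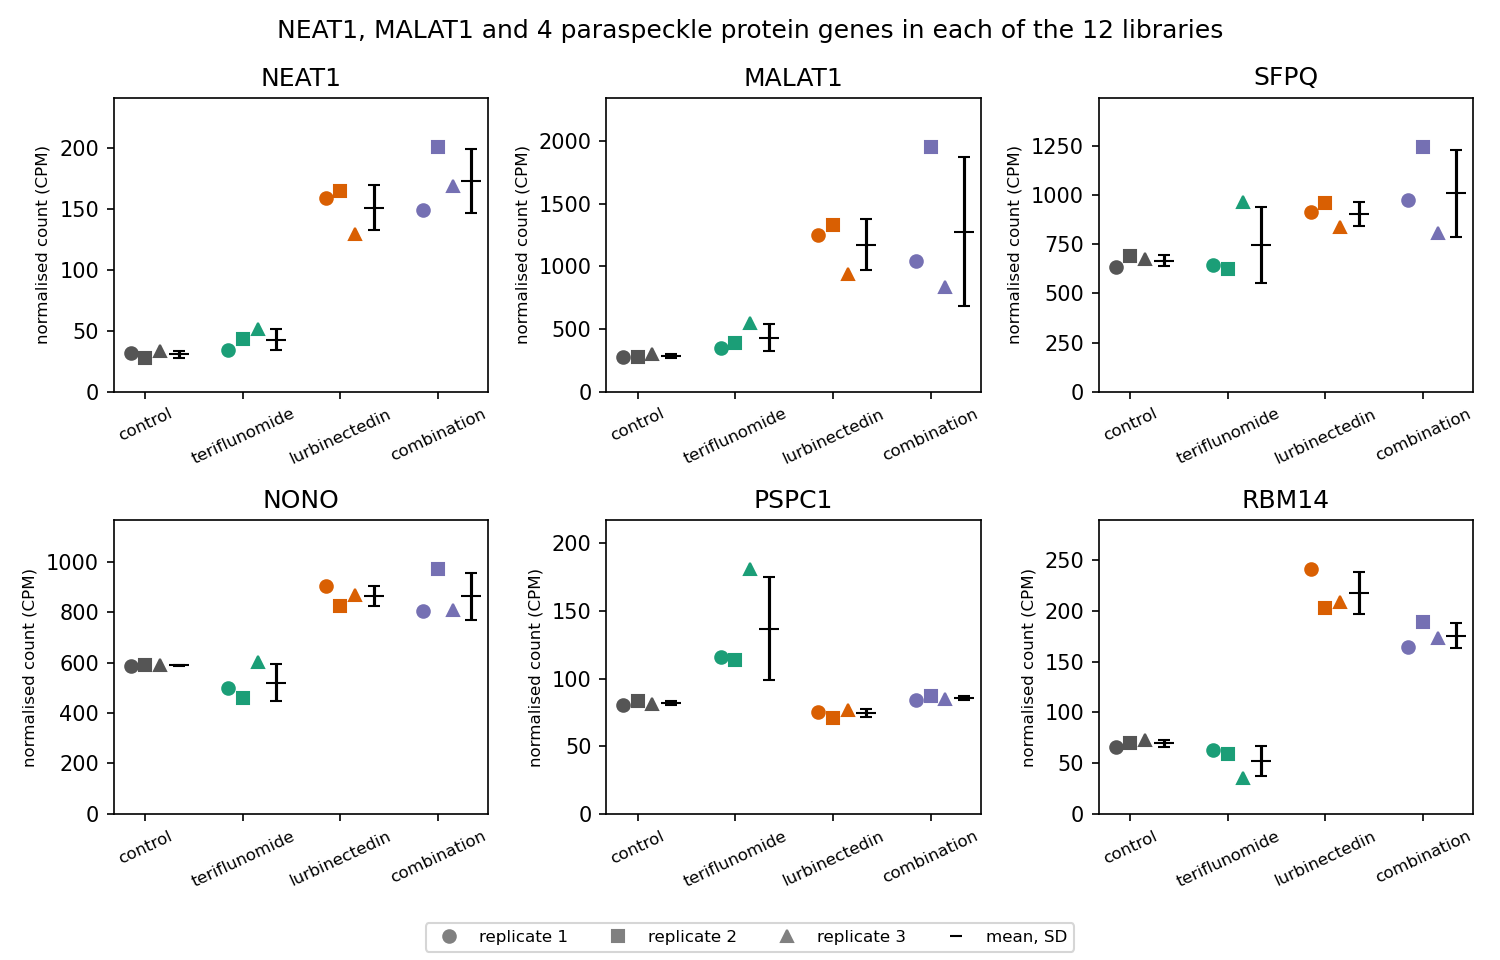
Normalised counts (CPM, vertical axes starting at 0) of the 6 genes in each library, by group, with marker shapes for replicates and a bar for mean and SD (n = 3). NEAT1, MALAT1 and RBM14 are higher in all lurbinectedin and combination libraries than in any other library, and PSPC1 is highest with teriflunomide.

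RBM14, a coactivator with a prion-like domain that is needed for paraspeckles to form, was the protein gene with the largest rise. It had 66.4, 69.4 and 72.7 CPM in controls, 62.7, 59.3 and 35.6 CPM with teriflunomide, 241, 203 and 209 CPM with lurbinectedin, and 165, 189 and 173 CPM with the combination. The 2 groups exposed to lurbinectedin did not overlap each other or either of the other groups. Lurbinectedin raised RBM14 3.13-fold (log2 1.65, SE 0.17, edgeR adjusted p = 8.90e-07), and the combination raised it 2.53-fold (log2 fold change 1.34, SE 0.17, edgeR adjusted p = 7.75e-06). RBM14 shares 432 exon bases, 6.67% of its own, with the readthrough gene RBM14-RBM4, which held 7 to 52 counts per library against 1045 to 5737 for RBM14.

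SFPQ and NONO, the most highly expressed of the protein genes, rose less. NONO, the usual partner of SFPQ, had 588, 592 and 591 CPM in controls and 903, 824 and 868 CPM with lurbinectedin, an increase of 1.47-fold (log2 fold change 0.55, SE 0.11, edgeR adjusted p = 0.000486). With the combination it had 807, 971 and 811 CPM (1.46-fold; log2 0.55, SE 0.11, edgeR adjusted p = 0.000571), and with teriflunomide 500, 459 and 603 CPM. All 6 libraries with lurbinectedin lay above all 6 without it. NONO shares 187 exon bases (1.67% of its own) with ZMYM3 on the opposite strand, and whether the counting used strand is not given in the sources used here.

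SFPQ, which binds NEAT1 and is essential to paraspeckles, had 637, 689 and 676 CPM in controls, 644, 624 and 968 CPM with teriflunomide, 915, 960 and 839 CPM with lurbinectedin, and 976, 1246 and 808 CPM with the combination. Lurbinectedin and combination libraries lay above all controls but all lurbinectedin libraries and combination replicate 3 lay below teriflunomide replicate 3. The increase was 1.35-fold with lurbinectedin (log2 0.44, SE 0.17, edgeR adjusted p = 0.0332) and 1.51-fold (log2 0.60, SE 0.17, edgeR adjusted p = 0.00677) with the combination. The lurbinectedin call is the least stable of those on these genes: without control replicate 1, 2 or 3 or lurbinectedin replicate 1 or 2 the edgeR adjusted p was 0.0984, 0.0622, 0.0706, 0.0791 or 0.101, and with library size as the only scaling the log2 fold change was 0.20 (edgeR adjusted p = 0.101).

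PSPC1, the third protein of the SFPQ and NONO family, did not follow them. It had 80.7, 83.6 and 81.4 CPM in controls, 116, 114 and 181 CPM with teriflunomide, 75, 71.2 and 77.0 CPM with lurbinectedin, and 84.5, 87.0 and 84.9 CPM with the combination. Values were highest with teriflunomide in all 3 libraries and lowest with lurbinectedin, and no 2 of the 4 groups overlapped. Against control, PSPC1 had a log2 fold change of -0.14 with lurbinectedin (95% interval -0.45 to 0.18, edgeR adjusted p = 0.411) and of 0.06 with the combination (-0.25 to 0.38, edgeR adjusted p = 0.721). The lurbinectedin value passed the threshold under other settings: with only these 2 groups in the fit it was -0.16 (edgeR adjusted p = 0.0128), without teriflunomide replicate 3 it was -0.15 (edgeR adjusted p = 0.0476), and with library size as the only scaling it was -0.37 (edgeR adjusted p = 0.0179).

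**Figure D2:**
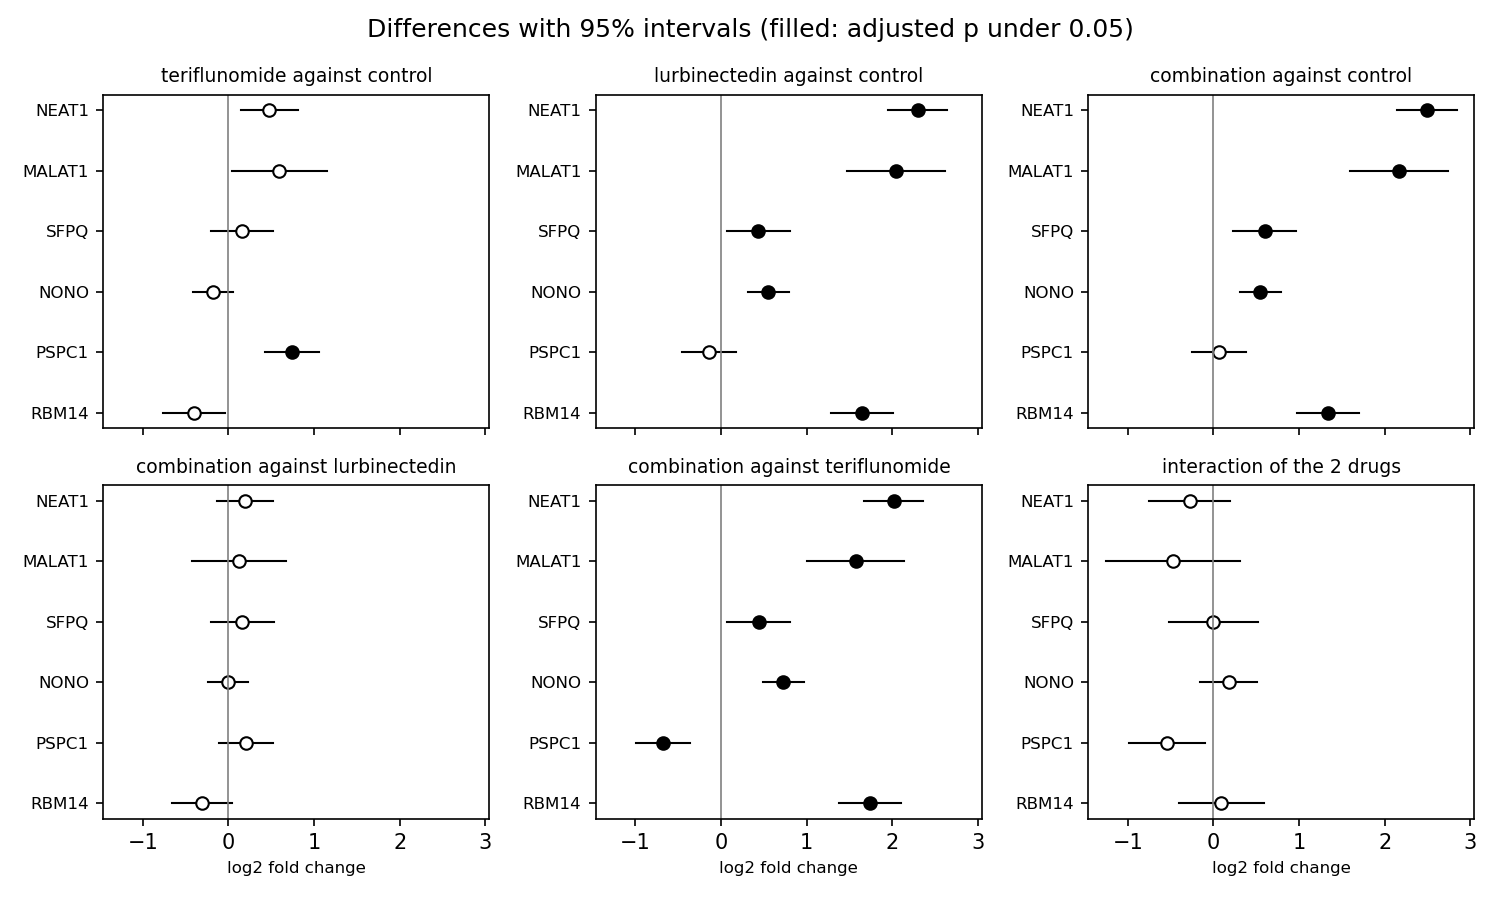
Log2 fold changes of the 6 genes (points) with 95% intervals (bars) in the 6 contrasts, filled where the edgeR adjusted p is under 0.05. The intervals of NEAT1, MALAT1, SFPQ, NONO and RBM14 lie above 0 in both comparisons of lurbinectedin-exposed groups with control, and the interval of PSPC1 spans 0 there.

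In number, 5 of the 6 genes rose with lurbinectedin and none fell, in a comparison in which 71.6% of all genes tested were called, 36% higher and 35.7% lower. With the combination the same 5 rose against control, where 68.4% of all genes were called and 34.1% were higher. All 6 genes had groups that did not overlap in each of these comparisons, which was also so for 83.2% and 77.2% of all genes. The median log2 fold change of the 6 was 1.10 with lurbinectedin and 0.97 with the combination, beside 0.05 and 0.04 over all genes tested. The 2 comparisons share their control libraries. In bulk RNA, a change in the mix of cells and a change in RNA per cell cannot be told apart. With library size as the only scaling the median of all genes with lurbinectedin was -0.18 and 39.2% of calls were higher, where TMM scaling gave 50.2%. NEAT1, MALAT1, NONO and RBM14 stayed called higher under that scaling.

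With teriflunomide alone, PSPC1 was the only 1 of the 6 genes called, where 6.01% of all genes tested were called, 3.88% higher and 2.13% lower. That share moved with the libraries: 1002 genes were called in all, 248, 265 or 216 without control replicate 1, 2 or 3, 1555 without teriflunomide replicate 3, 2757 (16.3%) without that library and combination replicate 2, and 1907 with DESeq2. PSPC1 rose 1.67-fold (81.9 ± 1.52 to 137 ± 38.1 CPM; log2 fold change 0.74, SE 0.15, edgeR adjusted p = 0.0122). Teriflunomide replicate 3, the library with 22.6% mitochondrial counts, had the highest PSPC1 value, and without it the log2 fold change was 0.49 (edgeR adjusted p = 0.000679). Without control replicate 1, 2 or 3 the adjusted p was 0.0654, 0.0537 or 0.0659 (edgeR), and with only these 2 groups in the fit it was 0.0865, at log2 fold changes of 0.71 to 0.76.

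NEAT1 and MALAT1 also had higher values with teriflunomide in every library, but neither passed the threshold. The NEAT1 log2 fold change was 0.48 (95% interval 0.14 to 0.81, edgeR adjusted p = 0.0847), and 0.33 (edgeR adjusted p = 0.157) without replicate 3. DESeq2 called it (adjusted p = 0.0481), as did edgeR without teriflunomide replicate 1 (adjusted p = 0.0322). With no expression filter edgeR called NEAT1, MALAT1 and RBM14 too (adjusted p = 0.0305, 0.000438 and 0.0379). The MALAT1 log2 fold change was 0.59 (0.04 to 1.15, edgeR adjusted p = 0.173), and 0.37 (edgeR adjusted p = 0.540) without replicate 3.

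The other protein genes gave no call with teriflunomide. RBM14 values were lower in all 3 libraries (log2 fold change -0.40, 95% interval -0.76 to -0.05, edgeR adjusted p = 0.154), and -0.19 without replicate 3, where the lowest value, 35.6 CPM, was found. NONO had a log2 fold change of -0.18 (-0.42 to 0.06, edgeR adjusted p = 0.325), which was -0.30 and past the threshold without replicate 3 (edgeR adjusted p = 0.0450). SFPQ had 0.16 (-0.21 to 0.53, edgeR adjusted p = 0.587) and turned to -0.08 without that library. In all, 4 of the 6 genes did not overlap between teriflunomide and control, as did 36.8% of all genes.

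The combination was compared with lurbinectedin alone to see what teriflunomide added. None of the 6 genes was called by edgeR, none had an unadjusted p under 0.05, and DESeq2 called none, with 0% of all genes called by edgeR, a smallest adjusted p over all genes of 0.145, and 584 of 11829 genes (4.94%) called by DESeq2. With edgeR 259 genes (1.52%) were called without combination replicate 2, 2067 (12.1%) without teriflunomide replicate 3 and 3640 (21.5%) without both. The log2 differences were 0.20 for NEAT1 (95% interval -0.13 to 0.52), 0.12 for MALAT1 (-0.43 to 0.67) and 0.16 for SFPQ (-0.21 to 0.53). They were 0.20 for PSPC1 (-0.12 to 0.51) and -0.31 for RBM14 (-0.66 to 0.04). NONO had -0.00348 (-0.24 to 0.23), and its sign depended on the scaling. For 5 of the 6 genes the interval includes the value that teriflunomide gave against control; for PSPC1 that value, 0.74, lies above the upper bound of 0.51. The MALAT1 and SFPQ values rest on combination replicate 2 and were -0.32 and -0.02 without it.

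PSPC1 was higher and RBM14 lower in every combination library than in any lurbinectedin library, and such a separation was found for 23.7% of all genes. RBM14 passed the threshold when teriflunomide replicate 3 was left out of the shared estimate of spread (log2 fold change -0.30, edgeR adjusted p = 0.0252), a fit that called 12.1% of all genes. It also did so without both that library and combination replicate 2 (-0.36, edgeR adjusted p = 0.00326), where 21.5% of all genes were called.

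Against teriflunomide alone, the combination raised 5 of the 6 genes and lowered PSPC1, in a comparison where 70.9% of all genes were called, 35.2% higher and 35.8% lower. NEAT1 rose by 2.02 on the log2 scale (SE 0.16, edgeR adjusted p = 7.32e-08), RBM14 by 1.74 (SE 0.17, edgeR adjusted p = 6.07e-07) and MALAT1 by 1.57 (SE 0.26, edgeR adjusted p = 0.000105). NONO rose by 0.73 (SE 0.11, edgeR adjusted p = 4.51e-05). PSPC1 fell by 0.68 on the log2 scale (SE 0.15, edgeR adjusted p = 0.000893). SFPQ rose by 0.44 (SE 0.17, edgeR adjusted p = 0.0333), but its groups overlapped, and without combination replicate 2 the difference was 0.27 (edgeR adjusted p = 0.162). Leaving out teriflunomide replicate 1 or 2 also ended the SFPQ call (edgeR adjusted p = 0.126 and 0.141).

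The interaction contrast asks whether teriflunomide acted differently in the presence of lurbinectedin. None of the 6 genes was called by edgeR or DESeq2, against 0.258% of all genes with edgeR (43) and 1.87% with DESeq2 (258), and 1 of the 6, PSPC1, had an unadjusted p under 0.05. Its interaction was -0.54 on the log2 scale (95% interval -0.99 to -0.10, edgeR adjusted p = 0.380), the values being 0.74 for teriflunomide against control and 0.20 for the combination against lurbinectedin. MALAT1 had -0.47 (-1.25 to 0.31, edgeR adjusted p = 0.722), NEAT1 -0.28 (-0.75 to 0.19, edgeR adjusted p = 0.730), NONO 0.18 (-0.16 to 0.51, edgeR adjusted p = 0.766), RBM14 0.09 (-0.41 to 0.59, edgeR adjusted p = 0.937) and SFPQ 0.00 (-0.52 to 0.52). The count over all genes was 6, 2 or 2 without control replicate 1, 2 or 3, 2 to 6 without 1 lurbinectedin library, and 12 or 66 without combination replicate 1 or 2. It was 24 or 616 when teriflunomide replicate 2 or 3 was left out, and 1839 when both libraries with high mitochondrial shares were. None of the 6 genes was called in any of these fits.

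Set against each other per length, the 6 genes kept neither their order nor their proportions. In controls the mean levels in CPM per kb of exon ran from SFPQ at 90.0 through NONO at 52.6, MALAT1 at 32.2, PSPC1 at 17.0 and RBM14 at 10.7 to NEAT1 at 1.35, and no 2 neighbours in this order overlapped. With lurbinectedin MALAT1 stood at 133 and SFPQ at 122, with overlapping libraries, followed by NONO at 77.1, RBM14 at 33.6, PSPC1 at 15.4 and NEAT1 at 6.63. RBM14 thus passed PSPC1, and MALAT1 drew level with SFPQ.

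Proportions within the SFPQ, NONO and PSPC1 family were compared in the same way. PSPC1 was 0.323 of the NONO level per kb in controls (range 0.320 to 0.329), 0.605 with teriflunomide (0.540 to 0.699), 0.200 with lurbinectedin (0.194 to 0.207) and 0.232 with the combination (0.209 to 0.244). Each of the 4 groups kept its own range. SFPQ was 1.71 times NONO in controls (1.64 to 1.76) and 2.14 times with teriflunomide (1.95 to 2.43). In the lurbinectedin and combination groups it was 1.59 (1.46 to 1.76) and 1.76 times (1.51 to 1.94), overlapping the controls. RBM14 was 0.119 of the SFPQ level in controls, 0.0875 with teriflunomide, 0.276 in the lurbinectedin group and 0.204 in the combination group.

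**Figure D3:**
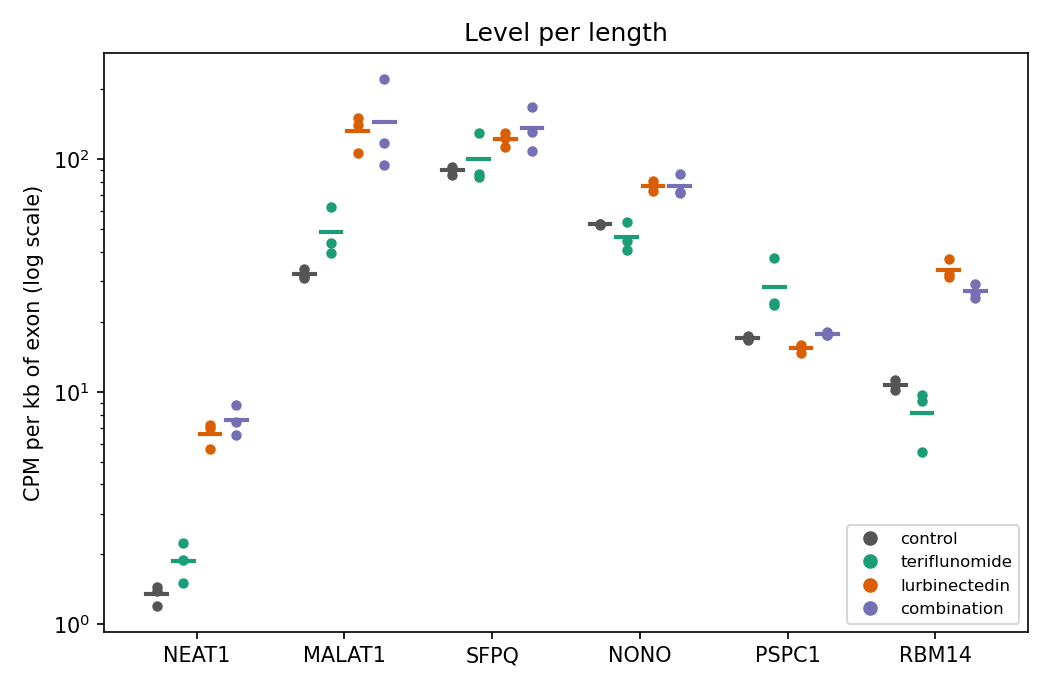
Levels of the 6 genes in CPM per kb of exon (log scale), with a point for each library and a line for each group mean. In the lurbinectedin group RBM14 lies above PSPC1 and MALAT1 overlaps SFPQ, whereas the 6 genes are separate in controls.

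The 6 genes differ in length, a property to which the lurbinectedin response of all genes was tied. When nuclear genes tested were split into 5 bins of equal number by genomic span, the median log2 fold change with lurbinectedin was 0.69, 0.62, 0.28, -0.36 and -1.86 from the shortest bin to the longest. MALAT1 (8.83 kb) and RBM14 (13.3 kb) fall in the second bin and NEAT1 (22.8 kb) and SFPQ (16.8 kb) in the third. The rises of MALAT1, RBM14 and NEAT1 were above the upper quartile of their bins (1.24 in the second and 0.83 in the third). SFPQ was within the middle range of its bin. NONO (46.7 kb) is in the fourth bin, in which 49.1% of genes fell and the upper quartile was 0.26, below its own 0.55. PSPC1 is in the longest bin, in which 83.7% of genes were called lower and the quartiles were -3.12 and -0.91, and its own value was -0.14. NEAT1 and MALAT1 are also among 1854 tested genes with a single exon block, of which 47.6% were called higher, with a median of 0.66.

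**Figure D4:**
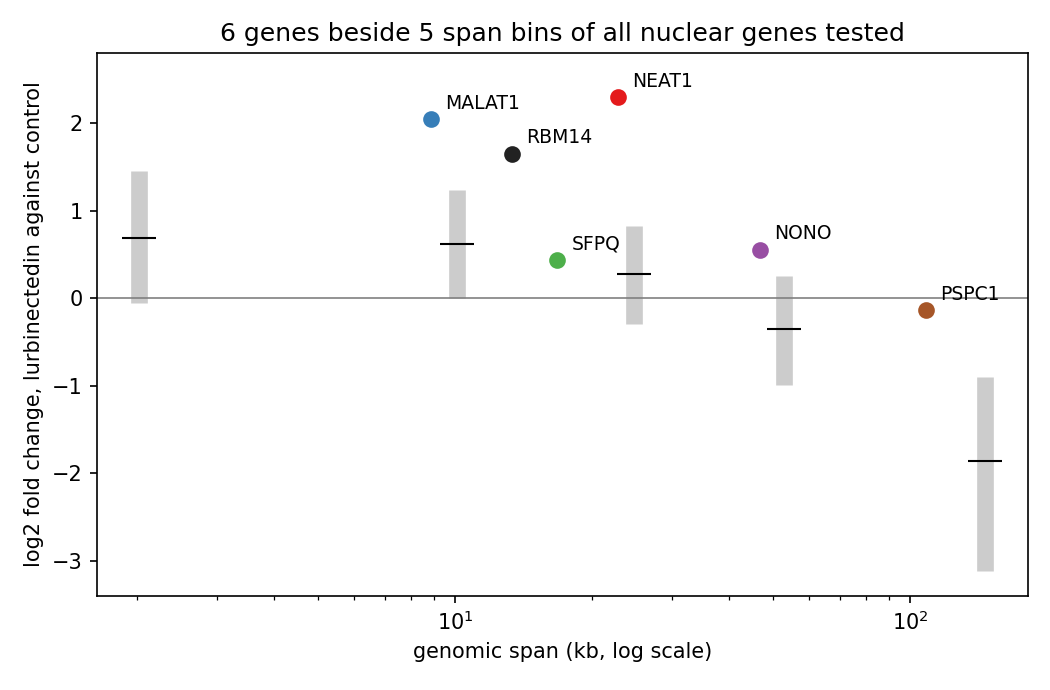
Log2 fold change with lurbinectedin against control by genomic span (kb, log scale). Coloured points are the 6 genes; grey bars run from the lower to the upper quartile of each of 5 span bins of nuclear genes, placed at the bin's median span, with a line at the median. All 6 points but SFPQ lie above the bar of their own bin, and the bar of the longest bin lies wholly below 0.

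Around NEAT1 and MALAT1, 22 of 47 other genes within 250 kb were tested. With lurbinectedin 10 rose, 2 fell and 10 were not called, beside 36% higher and 35.7% lower over all genes. The median log2 fold change of the 22 genes was 0.46, beside 0.05 over all genes. Leaving out teriflunomide replicate 3 and combination replicate 2 gave 13 higher and 3 lower with lurbinectedin, when 79.6% of all genes were called. Genes of span bins 1 to 4, shortest first, had medians of 0.69, 0.62, 0.28 and -0.36. In these bins 50.9%, 56.9%, 44.6% and 21.2% were called higher. The part of gene span in the neighbours' values was not tested. FRMD8, whose annotated end lies 9.249 kb before the start of NEAT1, rose from 27.9 ± 1.37 to 116 ± 8.25 CPM (log2 fold change 2.06, SE 0.27, edgeR adjusted p = 1.07e-05). SLC25A45 (2.83), a mitochondrial carrier gene, and TIGD3 (2.68) had larger log2 fold changes than NEAT1. Their control means were low, 1.64 and 0.611 CPM, beside 30.7 CPM for NEAT1. RELA, which encodes a subunit of NF-kappaB, had 1.19. On the far side of MALAT1, LTBP3 and EHBP1L1 fell by 0.44 and 0.96 on the log2 scale. None of these 22 genes was called with teriflunomide, where 6.01% of all genes were. Without teriflunomide replicate 3 and combination replicate 2, 1 rose and 1 fell with teriflunomide, when 16.3% of all genes were called. With the combination 11 rose and 2 fell, beside 34.1% higher and 34.4% lower over all genes. These counts were 13 and 3 without the same 2 libraries, when 74.2% of all genes were called.

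**Figure D5:**
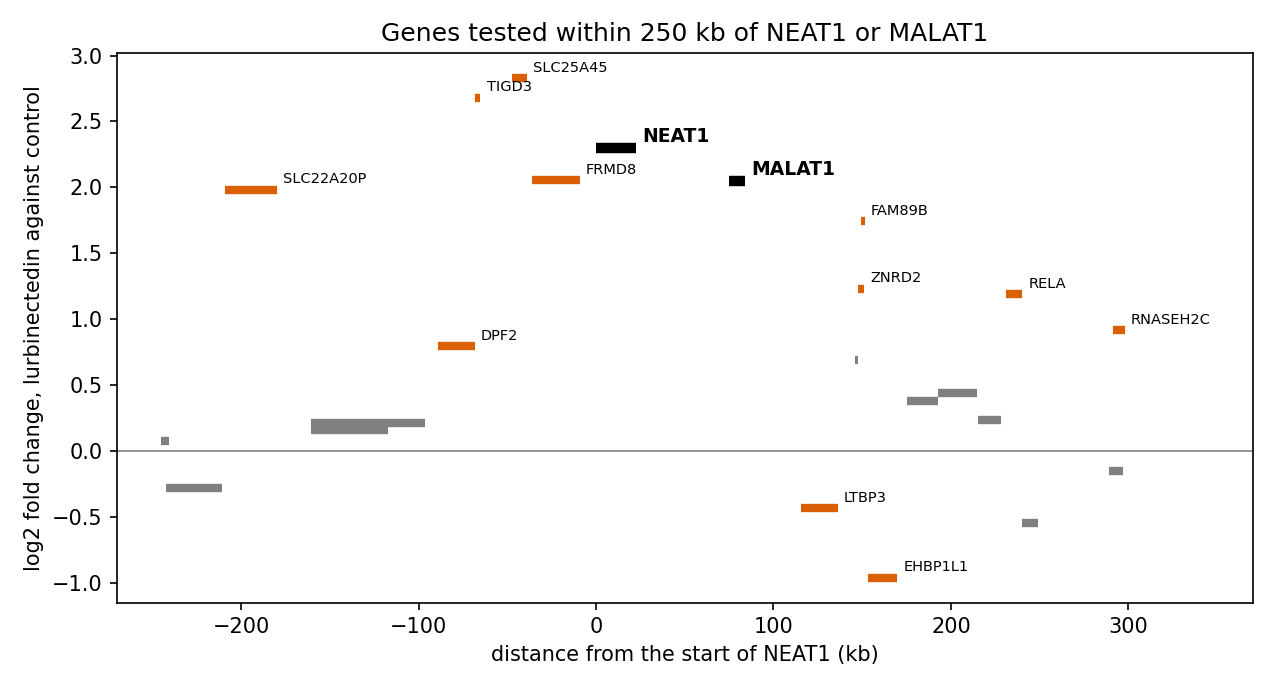
Log2 fold change with lurbinectedin against control of genes tested around NEAT1 and MALAT1 (1 of them not shown), drawn to scale at their distance (kb) from the start of NEAT1. Black bars are NEAT1 and MALAT1, orange bars genes with an edgeR adjusted p under 0.05 and grey bars the others. FRMD8, SLC25A45 and TIGD3 lie beside NEAT1 at changes of 2.06 to 2.83.

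Start regions were read for the protein genes that rose and for PSPC1, since RBM14 and NONO moved the same way and PSPC1 did not. RefSeq windows on GRCh38.p14 of 250 bases before to 50 after the start were held for 4 of the 6 genes (not for NEAT1 or SFPQ). Capitals mark CCAAT on either strand, the box bound by the factor NF-Y, at chr11:66616380-66616679 (plus strand) for RBM14, chrX:71283385-71283684 (plus strand) for NONO and chr13:19782896-19783195 (minus strand) for PSPC1.
RBM14 start region: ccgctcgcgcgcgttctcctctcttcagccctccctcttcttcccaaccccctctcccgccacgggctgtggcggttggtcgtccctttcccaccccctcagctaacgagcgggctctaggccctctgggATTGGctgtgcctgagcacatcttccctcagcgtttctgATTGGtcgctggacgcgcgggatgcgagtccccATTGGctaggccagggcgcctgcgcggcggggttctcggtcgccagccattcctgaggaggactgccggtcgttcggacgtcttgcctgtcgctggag
NONO start region: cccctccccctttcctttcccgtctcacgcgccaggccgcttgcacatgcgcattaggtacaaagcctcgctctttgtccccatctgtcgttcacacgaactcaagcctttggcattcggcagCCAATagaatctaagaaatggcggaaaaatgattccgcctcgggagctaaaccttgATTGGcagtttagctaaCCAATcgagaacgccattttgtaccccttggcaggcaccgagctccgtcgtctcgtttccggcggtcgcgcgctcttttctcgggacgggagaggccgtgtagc
PSPC1 start region: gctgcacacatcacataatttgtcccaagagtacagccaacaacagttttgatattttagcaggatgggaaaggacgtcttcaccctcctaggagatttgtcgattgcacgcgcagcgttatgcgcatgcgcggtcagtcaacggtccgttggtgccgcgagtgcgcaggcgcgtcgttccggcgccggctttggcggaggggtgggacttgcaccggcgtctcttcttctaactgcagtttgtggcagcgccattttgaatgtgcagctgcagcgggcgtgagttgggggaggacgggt
RBM14 and NONO each held 3 matches, 120, 81 and 48 bases before the start in RBM14 and 127, 71 and 54 bases before it in NONO, and the PSPC1 window held none. Of all 35116 RefSeq windows of this length, 34.6% held at least 1 match and 3.26% held 3 or more, a cut equal to the count in these 2 genes. MALAT1, which rose more than either, has 2 RefSeq windows and no match to CCAAT in them: one is 73.7% G and C with 5 matches to GGGCGG, and the other is 46% G and C with TATAAA 30 bases before the start. The TATAAA and GGGCGG letters, also searched on both strands, were found in 11.5% and 45.0% of all windows and in neither the RBM14, the NONO nor the PSPC1 window. At least 3 matches to GGGCGG were held by 15.8% of all windows. A match is a string of letters, not a site shown to be bound. Any link between these matches and the responses of the genes was not tested.

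The other proteins of paraspeckles did not move one way. Of 30 listed and tested, 9 rose, 10 fell and 11 were not called with lurbinectedin, with a median log2 fold change of -0.06. Leaving out teriflunomide replicate 3 and combination replicate 2 gave 10 higher and 14 lower with lurbinectedin, when 79.6% of all genes were called. Over all genes tested 36% rose and 35.7% fell with lurbinectedin, and the median was 0.05. For the combination 34.1% rose and 34.4% fell, and for teriflunomide 3.88% rose and 2.13% fell. These values also stand beside the counts of the lists that follow. RBM4B and MATR3, which bind RNA, rose by 1.33 and 1.43 on the log2 scale, and the cold-inducible CIRBP by 1.02 (edgeR adjusted p at most 5.55e-05). The MATR3 symbol belongs to 2 gene identifiers in the files, so its reads may be split. The identifier used had low means, 2.60 CPM in controls and 7.03 CPM with lurbinectedin. SMARCA4, the ATPase of the SWI/SNF remodelling complex and needed for paraspeckle assembly, fell by 1.26, the cold-inducible RBM3 by 1.03 and HNRNPA1, whose reads may be shared with its pseudogenes, by 0.70. With the combination 10 rose and 8 fell. Without teriflunomide replicate 3 and combination replicate 2, 9 rose and 13 fell, when 74.2% of all genes were called. With teriflunomide 2 fell, DAZAP1 by 0.41 and HNRNPK, which is needed to make the long NEAT1, by 0.33 (edgeR adjusted p = 0.0228 and 0.0401), and none rose. Without teriflunomide replicate 3 and combination replicate 2 the teriflunomide counts were 9 lower and 1 higher, when 2757 genes in all were called.

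Genes of nuclear speckles, where MALAT1 resides, were listed too. Of 12 tested, 8 rose, 1 fell and 3 were not called with lurbinectedin, with a median log2 fold change of 0.61, and 10 rose and 2 fell with the combination. Leaving out teriflunomide replicate 3 and combination replicate 2 gave 10 higher and 2 lower with lurbinectedin, when 79.6% of all genes were called. The RNA helicase gene DDX39B rose by 1.53, RNPS1, of the exon junction complex, by 1.12, and the scaffold gene SRRM2 by 0.88 (edgeR adjusted p at most 2.14e-05). The splicing factor gene SRSF1 fell by 1.16 (edgeR adjusted p = 0.000208). With teriflunomide 3 fell, U2AF2 by 0.64, RNPS1 by 0.43 and SRSF2 by 0.41, and none rose. Over all genes 2.13% fell and 3.88% rose with teriflunomide. Without the 2 libraries 4 fell, when 16.3% of all genes were called.

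The choice between short and long NEAT1 is made by cleavage and polyadenylation, and genes of RNA 3′ end processing divided. Of 17 tested, 7 rose, 5 fell and 5 were not called with lurbinectedin, with a median log2 fold change of 0.13. Leaving out teriflunomide replicate 3 and combination replicate 2 gave 8 higher and 7 lower with lurbinectedin, when 79.6% of all genes were called. CLP1 rose by 2.43, CPSF4 by 0.99 and CSTF2 by 0.62 on the log2 scale. The complex that reads the AATAAA signal and cuts the RNA was itself divided: CPSF4 belongs to it, as does CPSF1, which rose by 0.80 (edgeR adjusted p = 0.000721) and was chosen after its values were seen. Its members WDR33, CPSF2 and CPSF3 fell by 1.27, 1.25 and 1.09 (edgeR adjusted p at most 1.94e-06). With the combination 7 rose and 5 fell. None was called with teriflunomide, and 3 fell without teriflunomide replicate 3 and combination replicate 2, where 16.3% of all genes were called. NUDT21, CPSF6, CPSF7 and FIP1L1 are in both this list and that of other paraspeckle proteins.

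Other long noncoding RNAs gave no common direction. Of 15 listed, 14 were tested, of which 3 rose, 5 fell and 6 were not called with lurbinectedin. The median log2 fold change was -0.21. Without the 2 libraries 3 rose and 8 fell, in a fit that called 79.6% of all genes. KCNQ1OT1, the antisense RNA of the KCNQ1 imprinted domain, rose by 2.01 (edgeR adjusted p = 0.000301), and its reads cannot be told from those of KCNQ1 introns without strand. GAS5, a host of small nucleolar RNAs, rose by 1.35 and DANCR by 0.44. CYTOR, which has a near-identical copy and so uncertain reads, fell by 2.73, OIP5-AS1 by 1.02 and H19 by 0.81. DANCR alone was called with teriflunomide, where it fell by 0.86 (edgeR adjusted p = 0.00166). Without the 2 libraries 2 of the 14 fell with teriflunomide, when 16.3% of all genes were called.

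Over the 12 libraries, NEAT1 and MALAT1 had a Pearson correlation of log2 CPM of 0.968, and that of NEAT1 was 0.905 with NONO, 0.881 with RBM14, 0.806 with SFPQ and -0.38 with PSPC1. These libraries fall into those with and without lurbinectedin, which all such values share. Among 10312 genes with a symbol and a mean of at least 5 CPM, those most like NEAT1 included ANKRA2 (0.995) and ISCU (0.994). Those most like MALAT1 were ZNF596 (0.992) and the mitochondrially encoded MT-ND6 and MT-TL1 (0.991 each). Beside the MALAT1 values stand the mitochondrial shares, highest in combination replicate 2 (24.9%) and teriflunomide replicate 3 (22.6%), which are also the libraries with the highest MALAT1 in their groups. This was not particular to MALAT1, since both were also highest in their groups for NEAT1, SFPQ, NONO and PSPC1. For RBM14 combination replicate 2 was highest and teriflunomide replicate 3 lowest. The part of the mitochondrial share in the results on MALAT1 and the other genes was not tested. RBM14 was most like RASSF1 (0.999), HRAS and UBALD1 (0.998 each), SFPQ most like CHORDC1 (0.993), CCNT2 (0.989) and ZNF675 (0.985), and NONO most like NDUFV3 (0.990), CDC37 (0.988) and SLBP (0.986). The 3 most like PSPC1 were FRG1CP (0.973), HCFC2 and TOP2A (0.960 each).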

How the data were processed

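The authors deposited raw counts of reads per gene, 1 file per library. Per the submitters' processing notes, the tools were fastp 0.23.2, STAR 2.7.9 and featureCounts of Subread, with hg38; strand use, treatment of multi-mapping reads and the annotation release are not given in the sources used here. Per the labels' protocols, the RNeasy Plus Mini kit gave the RNA and the KAPA mRNA HyperPrep kit the libraries, from RNA with a poly(A) tail. Symbols were matched for 60463 identifiers (99.7%), the version suffix left off.

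From the counts, edgeR 4.0.16 in R 4.3.3 was run with filterByExpr, TMM scaling and a robust quasi-likelihood fit of 1 mean per group over all 12 libraries. In all, 6 contrasts were tested and p-values were adjusted by Benjamini-Hochberg over the 16683 genes tested, with a call at an adjusted p under 0.05. The biological coefficient of variation was 14.5%. The script was tested on simulated data. CPM are counts scaled to a common TMM-corrected library size. The labels do not say whether replicates are separate cultures, so p-values measure the spread between these libraries, which may be technical.

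The 6 genes and the gene lists were chosen with earlier results of these data known. Beside the 6, the rule names at most 3 genes per list, contrast and direction by adjusted p, tested genes within 250 kb of NEAT1 or MALAT1, genes whose exons overlap those of the 6, and the 3 genes most like each. A few genes named by it are not reported here. Lists are described by counts and medians, with no set test. Alternatives were 2 other scalings, mitochondrial genes left out, 2 other filters, a replicate block, a fit of only the groups compared, the Wald test of DESeq2 1.42.0, overlapping genes summed, each library left out in turn and, added after seeing the data, 2 libraries left out together. Sequence ends were aligned with Biopython 1.88.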

Additional observations from a re-analysis of the deposited data

How the results depend on the processing

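The calls on NEAT1, MALAT1, NONO and RBM14 in the 3 comparisons of lurbinectedin-exposed groups with unexposed ones held under all 22 alternatives. The number of the 6 genes called with teriflunomide was 1, but 4 with no expression filter, 2 with DESeq2, 2 without teriflunomide replicate 3 and combination replicate 2 (chosen after seeing the data), 0 with only the groups compared, and 0 to 2 with 1 library left out. For the combination against lurbinectedin it was 0, but 1 without both these libraries and 0 to 1 with 1 left out. The cause was not tested. With the replicate number as a block the counts were 1 for teriflunomide, 5 for lurbinectedin, 5 for the combination against control, 0 against lurbinectedin, 5 against teriflunomide (SFPQ lost, edgeR adjusted p = 0.0530) and 0 for the interaction. Of all genes, the fit with the block called 2.49%, 69.5%, 66.2%, 0%, 68.8% and 0.048%, in the same order. Pairing by replicate number was not seen: 1 of 18 same-numbered pairs correlated above 0.1 (r from -0.402 to 0.144) and 0 of 12 libraries correlated best with its own number. The check used deviations from the means of groups of 3, so it cannot show that the libraries are unpaired.

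Signs turned only for values not called. Under library size alone PSPC1 in the combination against control was -0.11. NONO in the combination against lurbinectedin was 0.00794 with DESeq2 size factors, 0.0516 with library size alone, 0.0102 with no filter, 0.00204 with a 1 CPM filter, 0.00453 with only the groups compared, 0.00276 with overlapping genes summed, 0.00793 with DESeq2, and -0.0940 to 0.0507 with 1 library left out. In the same comparison MALAT1 ranged from -0.32 to 0.35 and SFPQ from -0.0173 to 0.30 with 1 library left out, and without both libraries they were -0.32 and -0.0174. For teriflunomide SFPQ ranged from -0.0763 to 0.27, and was -0.0754 without both. For the interaction SFPQ was -0.00157 without mitochondrial genes, -0.00351 with the block and -0.16 to 0.24 with 1 library left out, and RBM14 -0.17 without both and -0.11 to 0.24 with 1 left out. Library size alone shifts all genes, as given in the report, and doses, times and NEAT1 forms limit every comparison.

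Over all genes tested, teriflunomide against control gave 1002 calls, but 265 with library size alone, 1800 with no filter, 415 with the block and 283 with only the groups compared. The combination against lurbinectedin gave 0, but 612 with no filter and 94 with only the groups compared. The interaction gave 43, but 6 with library size alone, 195 with no filter and 8 with the block. The cause was not tested.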
